A study of Mus musculus with 15 samples.

Results

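Peaks of H3K4me3 (histone H3 trimethylated at lysine 4) were compared between wild-type (WT) mouse liver and liver of Uhrf1hepKO (KO) mice, which lack Uhrf1 in hepatocytes. All peaks on chromosomes 1 to 19 in 4 H3K4me3 peak lists were used, from 4 of the 15 samples of the series. The lists held 70687 peaks in WT replicate 1, 71868 in KO replicate 1, 24917 in WT replicate 2 and 26206 in KO replicate 2, and their other 1959, 2007, 1035 and 1003 lines lay on other sequences and were left out. Both genotypes were C57Bl/6 mice of 8 to 12 weeks on a normal diet, at baseline, with the liver taken in the morning. Chromatin was cut with micrococcal nuclease and the ChIP libraries were sequenced. The KO is a deletion in 1 cell type of a mixed organ, so the other liver cells of KO mice still carry Uhrf1. The labels put the second WT and KO libraries in round 2. The first ones carry no round there and are called round 1 here. Where 4 values stand in a row, they are those of WT and KO of round 1 and then of WT and KO of round 2. Nothing in the labels says that the replicates came from separate animals. With 2 libraries a genotype, the smallest two-sided p of an exact permutation test is 0.33, so no p-value is given. KO was instead set against WT within each round, and a difference was read against its spread over the 2 rounds. Sequencing depth is unknown, since the lists hold peaks and no read counts. One label field of both round 2 libraries names H3K9me3 as the antibody, against their titles. Of the peaks that the 2 lists of round 2 shared, 97.8% of WT and 98.2% of KO peaks overlapped a round 1 H3K4me3 peak of the same genotype and 1.10% and 1.25% an H3K9me3 peak of WT, so the lists were used by title.

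H3K4me3 is placed by the SET1 and MLL methyltransferase complexes around the starts of active and poised genes, mostly at CpG-rich promoters, and it is removed by demethylases of the KDM5 family. CXXC domain subunits of these complexes bind unmethylated CpG, and DNA methylation and H3K4me3 tend to exclude each other. Uhrf1 binds hemimethylated DNA after replication and brings in Dnmt1, which copies the methylation to the new strand.

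Gene starts were marked very much alike in both genotypes. A start counted as marked when a peak lay within 1 kb of it. Starts came from the RefSeq promoter table (GRCm38.p6) for 16457 of 20665 protein-coding genes on chromosomes 1 to 19. For the other 4208 genes the end with more H3K4me3, summed over the 4 libraries, was taken. WT replicate 1 had 13408 marked genes (64.9%), KO replicate 1 had 13232 (64.0%), WT replicate 2 had 12062 (58.4%) and KO replicate 2 had 12632 (61.1%). In all 4 libraries together 11908 genes were marked. Within round 1, 154 genes (0.745% of all) were marked in KO and not in WT, and 330 (1.6%) in WT and not in KO. Within round 2 the numbers were 609 (2.95%) and 39 (0.189%), so the excess lay on the WT side in round 1 and on the KO side in round 2. A mark in the 2 KO libraries and in no WT library was found at 23 genes, which is 0.111% of all genes. The reverse held for 3 genes, 0.0145% of all.

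The start came from the promoter table for 20 of the 23 genes marked in KO alone. For Rab27b, Cavin3 and Cd69 it was the gene end with more H3K4me3. The KO peaks themselves thus placed these starts, which may be the other end of the gene. Of the 23 genes, 16 had a start window with no WT peak within 1 kb. The 5 with the most distant WT peak were those of Nkx6-2, a homeobox factor of oligodendrocytes (gene at chr7:139579376-139582797), Rab27b, a GTPase of secretory vesicle traffic, Cavin3, a caveolar coat protein, S100a6, a calcium-binding protein, and Ephb2, an ephrin receptor. Nkx6-2 had 0, 351, 0 and 146 bp of peak in its start window, and the nearest WT peak lay 100138 bp away. Rab27b had 0, 172, 0 and 146 bp. Cavin3 had 0, 139, 0 and 562 bp. The smaller of these peaks were close to the shortest width in the lists (139 bp in round 1), and none of them had a WT peak nearby, the nearest lying 87168 bp from the window of Rab27b and 70462 bp from that of Cavin3. S100a6 had 0, 264, 0 and 210 bp, with no WT peak for 55121 bp. Ephb2 had 0, 217, 0 and 303 bp, with no WT peak for 47492 bp. A start counted as marked wherever in its window the peak lay. At Rab27b and Ephb2 the peaks of the KO libraries did not overlap each other, so the mark did not recur at the same place. The same held for Slc18a2 and Milr1, which are named below.

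Next in distance among the genes marked in KO alone came Csf2rb2, Phf11a, Cd69, Dennd1c, Rasal3, Stat4 and Rem1. Csf2rb2, a receptor chain of the interleukin 3 system (chr15:78282507-78305721), had 0, 209, 0 and 492 bp, and Phf11a had 0, 199, 0 and 204 bp. Cd69, an early activation antigen of lymphocytes, had 0, 317, 0 and 363 bp. Stat4, a transcription factor of interleukin 12 signalling, had 0, 145, 0 and 431 bp. Rasal3, a Ras GTPase-activating protein of T cells, had 0, 139, 0 and 711 bp, and Dennd1c had 0, 168, 0 and 564 bp. In these genes the KO libraries did not overlap the WT libraries, as the choice of genes fixes, and the length differed up to several-fold between the 2 KO libraries. Rem1, a small GTPase that modulates calcium channels, had 0, 223, 0 and 501 bp. Less isolated were Kcnj5, Slc18a2, Milr1, Rgs4, Clec12a, Fam131a and Nfatc4, the last of which had only 4 bp of peak in its window in KO replicate 1 and a WT peak 30 bp outside it.

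The 3 genes marked in WT alone were Sgcd, Nrxn2 and Slc13a2. Sgcd, the delta subunit of the sarcoglycan complex of muscle membranes, had 295, 0, 179 and 0 bp, and the nearest KO peak lay 238329 bp away. Nrxn2, a presynaptic adhesion protein, had 292, 0, 233 and 0 bp. Its start was the gene end with more H3K4me3, so the WT peaks themselves placed it. Slc13a2, a citrate transporter, had 600, 0, 224 and 0 bp, but a KO peak of round 1 lay 596 bp outside its window.

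**Figure D1:**
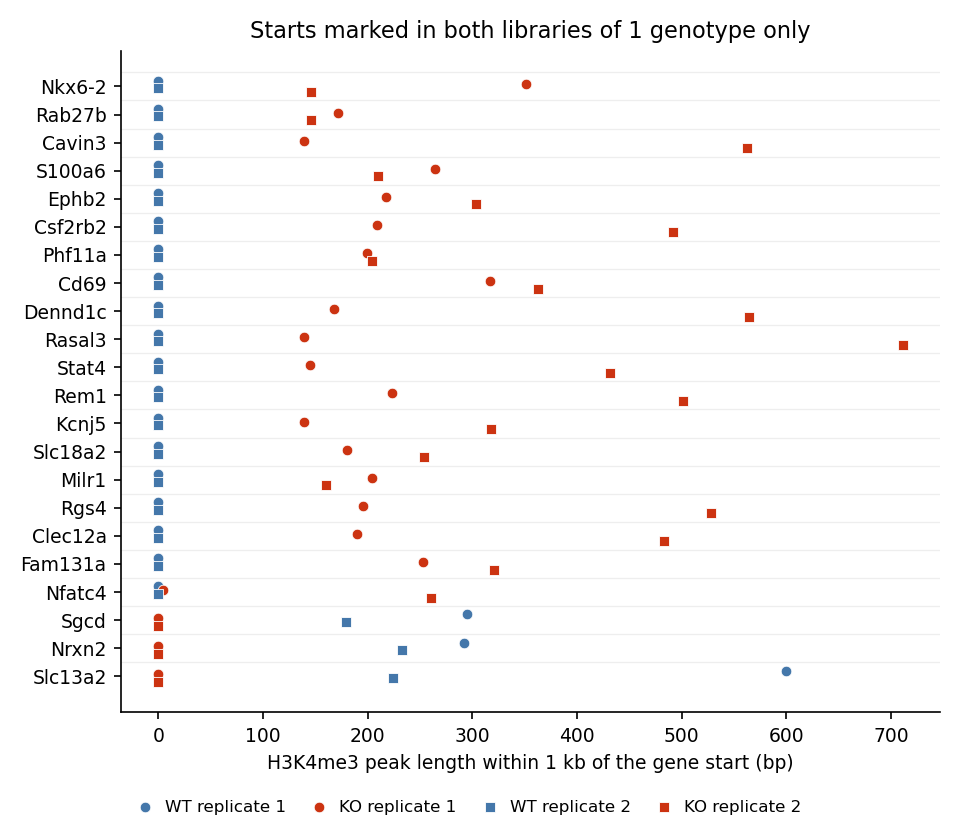
H3K4me3 peak length (bp) within 1 kb of the start for the 19 named genes marked in both KO and neither WT library and the 3 genes marked in both WT and neither KO library. Circles are replicate 1 and squares replicate 2, WT in blue and KO in red. Each gene has 0 bp in both libraries of one genotype, by the way the genes were chosen, and between 4 and 711 bp in the other.

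The starts marked in KO alone were mostly poor in CpG. The 250 bases before the start are printed 5′ to 3′ on the gene's strand (RefSeq, GRCm38.p6) for 6 of these genes, with every CpG in capitals, since CpG is what DNA methyltransferases and the H3K4 complexes read. They run from the richest start marked in KO alone to one without any CpG, with Sgcd of the WT side last. The printed bases are not the bases under the peaks. At Nkx6-2, Stat4, Csf2rb2 and Sgcd the nearest peak lay past the start, outside the printed stretch. In KO replicates 1 and 2 it was 214 and 147 bp from the start at Nkx6-2, 394 and 431 bp at Stat4 and 14 and 117 bp at Csf2rb2. At Sgcd it was 152 and 5 bp away in WT. At Rem1 and Phf11a the peak of KO replicate 1 reached the start.
Nkx6-2, chr7:139582798-139583047, minus strand, 26 CpG: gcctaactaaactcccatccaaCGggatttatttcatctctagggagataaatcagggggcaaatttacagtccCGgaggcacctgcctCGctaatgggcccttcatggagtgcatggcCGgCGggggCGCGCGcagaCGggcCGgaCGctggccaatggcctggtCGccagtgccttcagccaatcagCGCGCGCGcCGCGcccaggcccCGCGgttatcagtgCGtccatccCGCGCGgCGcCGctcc
Rem1, chr2:152626758-152627007, plus strand, 19 CpG: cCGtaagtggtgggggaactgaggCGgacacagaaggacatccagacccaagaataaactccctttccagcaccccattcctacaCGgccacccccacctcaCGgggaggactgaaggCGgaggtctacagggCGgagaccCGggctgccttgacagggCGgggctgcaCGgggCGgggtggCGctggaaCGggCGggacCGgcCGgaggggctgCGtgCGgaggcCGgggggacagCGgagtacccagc
Stat4, chr1:52007990-52008239, plus strand, 3 CpG: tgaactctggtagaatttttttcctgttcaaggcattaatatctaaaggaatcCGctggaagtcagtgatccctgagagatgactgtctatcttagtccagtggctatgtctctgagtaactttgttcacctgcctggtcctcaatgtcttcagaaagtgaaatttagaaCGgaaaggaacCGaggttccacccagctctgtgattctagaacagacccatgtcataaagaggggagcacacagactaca
Csf2rb2, chr15:78305722-78305971, minus strand, 3 CpG: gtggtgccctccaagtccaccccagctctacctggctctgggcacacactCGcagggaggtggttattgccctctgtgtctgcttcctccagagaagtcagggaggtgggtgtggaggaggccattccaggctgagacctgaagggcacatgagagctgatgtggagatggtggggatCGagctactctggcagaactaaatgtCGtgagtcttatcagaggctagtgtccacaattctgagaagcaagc
Phf11a, chr14:59297523-59297772, minus strand, 0 CpG: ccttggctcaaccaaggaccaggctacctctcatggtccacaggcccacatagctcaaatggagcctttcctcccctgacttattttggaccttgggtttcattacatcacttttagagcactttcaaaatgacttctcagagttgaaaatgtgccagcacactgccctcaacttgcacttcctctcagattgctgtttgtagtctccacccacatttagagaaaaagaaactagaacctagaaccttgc
Sgcd, chr11:47379326-47379575, minus strand, 9 CpG: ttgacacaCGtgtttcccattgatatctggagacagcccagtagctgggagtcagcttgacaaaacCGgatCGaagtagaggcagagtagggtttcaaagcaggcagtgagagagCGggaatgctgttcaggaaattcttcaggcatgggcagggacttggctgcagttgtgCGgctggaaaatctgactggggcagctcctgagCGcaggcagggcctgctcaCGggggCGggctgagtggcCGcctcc

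The ratio of observed to expected CpG was taken over 300 bases, 250 before the start and 50 after. It was 0.972 at Nkx6-2, 0.705 at Rem1, 0.253 at Stat4, 0.134 at Csf2rb2, 0 at Phf11a and 0.469 at Sgcd. The median was 0.300 over the 21 starts of the KO-alone genes in the table, and 5 of the 21 were above 0.6. Over all 20085 starts of the table the median was 0.586 and 48.9% were above 0.6. Starts marked in all 4 libraries had a median of 0.778, with 74.5% above 0.6, and starts marked in none had 0.193, with 8.07% above 0.6. By this measure the starts marked in KO alone lay between the unmarked and the marked starts and nearer to the unmarked ones. The authors' H3K27me3 islands of KO held 14 of the 23 KO-alone starts and those of WT held 11, against 23.7% and 23.0% of all genes. Nkx6-2, Cavin3, S100a6, Ephb2, Csf2rb2, Stat4 and Rem1 lay in islands of both genotypes.

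Markers of other liver cells gave genotype differences that often had opposite signs in the 2 rounds. Of 12 macrophage and myeloid markers, 4, 2, 6 and 8 were marked, and of 14 lymphocyte markers 2, 3, 2 and 5. The summed H3K4me3 length within 5 kb of the starts was 5.80, 5.03, 5.77 and 11.1 kb for the myeloid list and 5.32, 4.29, 3.93 and 6.06 kb for the lymphocyte list. A large part of these sums came from genes without a peak within 1 kb of the start. Lck, unmarked in all 4 libraries, gave 2878, 2496, 2412 and 2803 bp. Cd68, unmarked in both libraries of round 1, gave 3149, 3050, 2006 and 2560 bp. The myeloid markers Marco, Itgam and S100a9 and the lymphocyte markers Cd3e, Cd3g, Cd8a, Cd79a, Ms4a1, Nkg7, Gzma, Klrb1c and Lck were unmarked in all 4 libraries. Of 12 stellate cell and fibroblast markers 10, 8, 9 and 11 were marked, with 14.9, 12.0, 12.5 and 24.8 kb. All 12 endothelial markers were marked in each library, with 33.8, 26.7, 29.1 and 36.6 kb. By length, these 4 lists had less H3K4me3 in KO than in WT in round 1 and more in round 2. The list of 40 hepatocyte genes had 249.4, 249.4, 179.5 and 188.4 kb, and the 4 erythroid markers had 3.16, 3.96, 2.30 and 3.00 kb, more in KO in both rounds. The part of cell makeup in the KO-alone starts was not tested. A change in the number of cells of a type cannot be told apart from a change in the mark per cell in whole liver.

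The starts with the lowest ratio of KO to WT H3K4me3 length in both rounds lay in the major urinary protein (Mup) cluster on chromosome 4, a run of closely similar genes that male mouse liver secretes as pheromone carriers. The measure was the peak length within 5 kb of the start, taken for 11467 genes with at least 500 bp in all 4 libraries. At least 0.5 shorter in KO on the log2 scale in both rounds were 7 genes (0.061%), and all 7 were Mup genes. The 8 genes chosen for the lowest ratio, ranked by the round nearer to 0, were all from this cluster. Mup13 (chr4:61224308-61228252) had 3608, 988, 2170 and 854 bp, a log2 KO over WT of -1.87 and -1.35 in rounds 1 and 2. Mup15 had 6322, 2752, 2284 and 576 bp, and Mup17 had 5599, 2986, 2695 and 562 bp. At both genes each KO library was below the WT library of its own round. Mup-ps16 and Mup-ps12, Mup9, Mup19 and Mup2 followed, the last with 4007, 2981, 1243 and 897 bp.

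Of the 24 Mup genes in the gene table, 18 had at least 500 bp in all 4 libraries. Shorter in KO were 18 of these in round 1 and 16 in round 2, and 16 in both, where over all genes 9.12% were shorter in both. Their median log2 KO over WT was -0.51 in round 1 and -0.55 in round 2, beside -0.022 and 0.14 over all 11467 genes. The exceptions were Mup14, with 6261, 3421, 1614 and 1654 bp, and Mup3, with 8025, 7998, 6951 and 7588 bp. From 60 to 62 Mb of chromosome 4, a window set after the values were seen, peaks covered 140.9, 105.8, 57.4 and 34.3 kb in the 4 libraries. The number of peaks there was 260 and 257 in WT and KO of round 1 and 95 and 63 in round 2, so that in round 1 the KO peaks were about as many and shorter. Of the 43 regions found in both WT and neither KO library, 8 lay in this window. It was the stretch of its size with the most such regions, and the share of all regions lying in it was not counted. For scale, the 260 and 95 WT peaks in the window stand beside 70687 and 24917 peaks in the whole WT lists. The nearest KO peak was 2297 bp from the region near Mup-ps10 and 2211 bp from the one near Mup14. For each of the other regions it was 41 to 215 bp away. The Mup copies are so alike that reads may fit several of them, so values of single Mup genes are uncertain, while most of the cluster had less length in KO. Neighbouring copies also share windows and do not count as independent events.

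**Figure D2:**
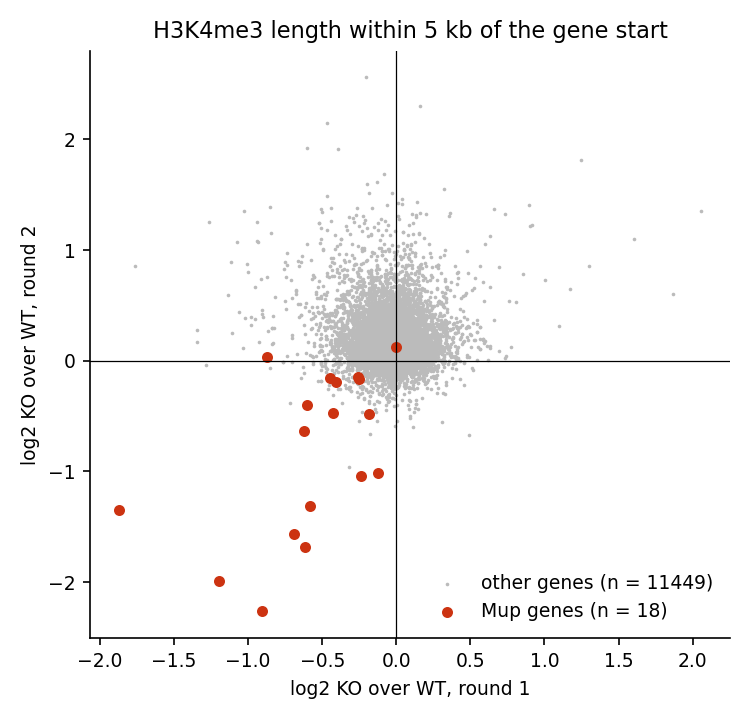
Log2 ratio of KO to WT H3K4me3 length within 5 kb of the gene start in round 1 (horizontal) and round 2 (vertical), 1 point per gene. The 18 Mup genes are in red and the other genes in grey. Of the Mup genes 16 lie at the lower left, where KO was shorter in both rounds, and the grey cloud sits above 0 in round 2.

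In the other direction, 25 genes (0.218%) had at least 0.5 more on the log2 scale in KO in both rounds. Slc3a1, a subunit of the cystine and dibasic amino acid transporter (chr17:85028347-85064241), had 553, 1311, 524 and 1838 bp, a log2 KO over WT of 1.25 and 1.81. Npr2, a natriuretic peptide receptor, had 1608, 3033, 878 and 2056 bp, and Arrdc2, an arrestin-domain protein, had 1448, 3572, 994 and 1801 bp. Both KO libraries were longer than both WT libraries at each of these 3 genes. Map3k14, the kinase NIK of non-canonical NF-kappaB signalling, had 1764, 3184, 904 and 1560 bp. Its KO replicate 2 was below WT replicate 1, so its groups overlapped across rounds although KO was longer within each. Mmd2 had 1456, 2424, 859 and 2148 bp. The remaining 3 of the 8 genes chosen for the highest ratio were Dach1, a transcriptional cofactor, Zfp385a and Zfp791, with log2 differences between 0.64 and 1.37. For single genes the 2 rounds gave unlike differences. Over the 11467 genes Pearson's r between the rounds was -0.028, given as a description, since neighbouring genes share peaks and each round shares its pair of libraries.

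Uhrf1 itself (chr17:56303337-56323486) kept H3K4me3 at its start, with 1421, 1070, 870 and 1283 bp. KO was shorter in round 1 and longer in round 2. These values do not check the knockout, since the position of the deleted exons is not given in the labels.

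Away from genes, the KO lists held more peaks in both rounds. Distal peaks, with no protein-coding gene within 5 kb, numbered 14819 in WT and 15495 in KO in round 1, and 3138 and 3644 in round 2. KO was 4.56% and 16.1% above WT. As a share of each list they made 20.96%, 21.6%, 12.6% and 13.9%. The share was higher in KO by 0.596 and 1.31 percentage points, a mean of 0.954 ± 0.506 (SD, n = 2 rounds), beside -8.37 points for WT replicate 2 against WT replicate 1. The difference thus had the same sign in both rounds and was far smaller than the difference between rounds of the same genotype. Of the distal peaks 12.1%, 11.2%, 19.9% and 19.6% lay within 1 kb of an end of a long non-coding RNA gene, with KO minus WT at -0.901 and -0.205 points. Distal peaks over 1 kb long numbered 880 and 845 in round 1 and 300 and 432 in round 2, so long ones were fewer in KO in one round and more in the other.

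Merging all 4 lists gave 76239 regions, of which 19239 (25.2%) had a peak in every library. In both KO libraries and neither WT library were 235 regions (0.308%), and in both WT and neither KO library 43 (0.0564%). Of the 235, 51 lay within 1 kb of a gene end, 91 lay in gene bodies, 19 were outside genes within 5 kb, and 74 (31.5%) were distal, where 23.8% of all 76239 regions were distal. The 74 had a median length of 444 bp, 42 of them were at least 400 bp long, 57 had no WT peak within 1 kb and 26 were over 100 kb from the nearest gene. The 235 were spread over all 19 chromosomes, with the most, 22, on chromosome 7. Of the 43 WT regions 13 (30.2%) were distal, a share close to that of the KO regions. These 13 had a median length of 373 bp, and 4 of them had no KO peak within 1 kb. Requiring no peak of the other genotype within 1 kb left 150 of the 235 and 13 of the 43. With the lists of each round cut to equal peak numbers, the contrast was smaller, with 183 regions for KO and 54 for WT.

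The longest distal region found in KO alone was chr5:58577684-58579331, 1648 bp long and 444447 bp from Pcdh7, a protocadherin gene. It had 0 bp in both WT lists, 1538 bp in KO replicate 1 and 1537 bp in KO replicate 2, with the authors' fold enrichment at 8.42 and 12.6 in the KO lists and no WT peak for 259333 bp. The next, chr6:13981099-13982543, lay 109580 bp from its nearest gene and had 1253 and 1318 bp in the KO lists. Both regions lay in H3K9me3 peaks of WT liver and in none of KO liver. The third, chr1:98589519-98590766, had 1122 and 1248 bp in KO, with the nearest WT peak 493444 bp away, and it lay in H3K9me3 peaks of both genotypes, at a long non-coding RNA gene. The fourth, chr8:84653510-84654696, 6634 bp from the immediate early gene Ier2, had 736 and 1187 bp in KO and a WT peak 1690 bp away. The fifth, chr3:133790344-133791511, 245207 bp from Tet2, a gene of 5-methylcytosine oxidation, had 157 and 1168 bp. The last of the 6, chr14:61695135-61696173, had 827 and 645 bp and a WT peak 316 bp away. In the first 3 of these regions the lengths in the KO libraries were close to each other, and in the fifth the KO library of round 2 was several times longer. Over all 235 regions, 17 lay in H3K9me3 peaks of WT (7.23%, where all regions gave 6.33%), of which 12 also lay in H3K9me3 peaks of KO and 5 did not, while 3 other regions lay in peaks of KO and not WT. Over the 74 distal ones, 11 lay in H3K9me3 peaks of WT (14.9%, where all distal regions gave 10.2%), 4 of them in WT and not KO, beside 3 in KO and not WT. Each H3K9me3 list comes from 1 library of round 2 and has no replicate check.

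The longest distal regions found in WT alone were shorter. The first, chr8:123586022-123586532, 511 bp, lay at a 5S ribosomal RNA gene 49364 bp from Gas8, with 423 bp in WT replicate 1 and 256 bp in WT replicate 2 and 0 bp in both KO lists. The second, chr4:60507388-60507875, was in the Mup cluster. The others had Sulf2, Mc4r, Mup8 and Npy5r as the nearest genes, 38240, 106731, 70755 and 75916 bp away, and only the last of the 6 had no KO peak for more than 1 kb, its nearest being 15988 bp away.

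**Figure D3:**
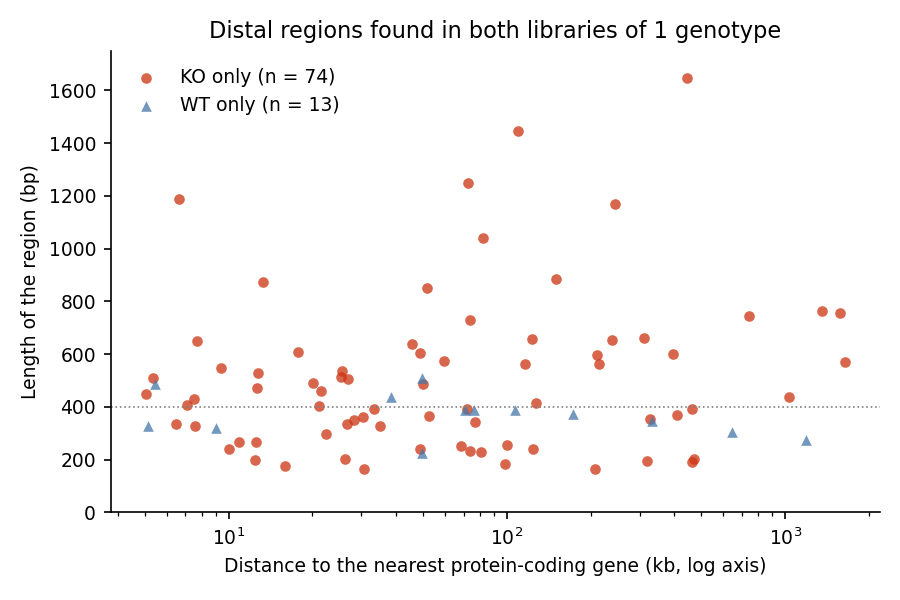
Length (bp) of each distal region found in both libraries of 1 genotype and neither of the other, against its distance to the nearest protein-coding gene (kb, log axis). Red circles are the 74 regions in KO alone and blue triangles the 13 in WT alone, and the dotted line is at 400 bp. The longest region in WT alone has 511 bp, and 42 of the KO regions lie at or above the line.

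Most peaks seen in one genotype of round 1 alone were not seen in round 2, while most of those of round 2 lay in the lists of round 1. A peak was called lone when no base of it overlapped a peak of the other genotype in its round. Lone peaks were 18.5% of the WT list and 17.8% of the KO list in round 1, and 5.49% and 19.7% in round 2. In numbers they were 13047, 12774, 1369 and 5162. They were short and weak, with a median width of 179, 179, 164 and 204 bp, where shared peaks had 448, 427, 653 and 896 bp. Their median fold enrichment, the authors' own value, was 4.08, 4.21, 4.95 and 5.44, where shared peaks had 7.58, 7.10, 21.5 and 35.2. Within 1 kb of a peak of the other genotype were 54.9%, 51.7%, 46.6% and 37.8% of them. Of the lone KO peaks of round 1, 4.55% (95% exact Clopper-Pearson interval 4.19 to 4.92, for counting error only) overlapped a KO peak of round 2 and 1.68% a WT peak of round 2. Of the lone WT peaks of round 1, 4.84% (4.48 to 5.22) overlapped a KO peak of round 2 and 2.20% a WT peak. The KO list of round 2 thus held lone peaks of either genotype alike. Of the shared peaks of round 1, 46.5% of KO peaks and 41.2% of WT peaks overlapped a round 2 peak of their own genotype. Lone peaks of round 2 lay mostly in both lists of round 1. Of the lone KO peaks of round 2, 79.7% overlapped the KO list and 79.4% the WT list of round 1, and of the lone WT peaks 74.1% and 75.8%.

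Lone peaks of 400 bp or longer were also followed from round 1 to round 2. Of the 508 lone KO peaks of round 1 with at least 400 bp, 18.9% overlapped a KO peak of round 2 and 3.74% a WT peak, and of 458 such WT peaks 15.1% and 8.73%. At gene ends the shares were 29.5% and 11.4% for KO and 32.1% and 17.9% for WT, and in gene bodies 11.1% and 2.77% for KO and 14.8% and 7.90% for WT. The subset of lone distal peaks of 400 bp or longer was likewise chosen after the values were seen. It held 151 KO peaks and 89 WT peaks in round 1. Of the 151 KO peaks, 43 (28.5%, interval 21.4 to 36.4) overlapped a KO peak of round 2 and 5 (3.31%, 1.08 to 7.56) a WT peak. Of the 89 WT peaks, 5 (5.62%, 1.85 to 12.6) overlapped a KO peak and 3 (3.37%, 0.701 to 9.54) a WT peak. From round 2 to round 1, 91.3% of 115 such KO peaks were in the KO list and 78.3% in the WT list. The intervals were 84.6 to 95.8 and 69.6 to 85.4. Both shares are of the same 115 peaks, of which 18 were in the KO list alone, 3 in the WT list alone and 87 in both. Lone distal KO peaks of any length were found in KO and in WT at 3.58% and 1.365% of 3883 from round 1. From round 2 the shares were 85.9% and 81.8% of 1141. Lone distal WT peaks of any length gave 2.05% and 1.18% from round 1 and 67.2% and 65.9% from round 2. For lone distal KO peaks of 400 bp or longer the share found in KO was above the share found in WT by 25.2 points from round 1 and 13.0 points from round 2. These directions are not separate checks. A site with long peaks in both KO lists and none in the WT lists counts in each direction. Such sites are also among the regions found in KO alone that are given above. These were 15.35 and 8.24 points with peaks of a −log10 q of 5 or more, 11.55 and 11.4 with peaks within 500 bp merged and 12.11 and 11.6 when 50% of a peak had to be overlapped. For lone WT peaks of this kind the difference in favour of WT was -2.25 points from round 1 and 0 from round 2, where only 12 peaks were tested.

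**Figure D4:**
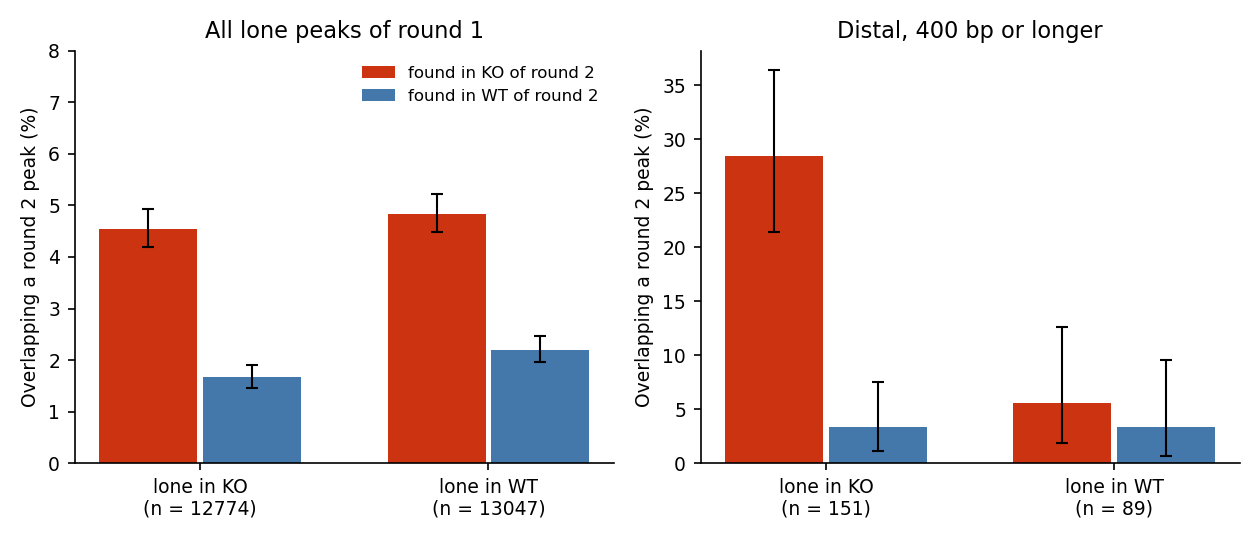
Share (%) of lone peaks of round 1 that overlap a peak of KO (red) or WT (blue) in round 2, for all lone peaks (left) and for distal ones of 400 bp or longer (right). The vertical axes differ, and bars carry 95% exact Clopper-Pearson intervals for counting error. On the left the pairs of bars look alike for KO and WT, and on the right the KO share of lone KO peaks stands at 28.5%.

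Lone peaks also met other marks unequally. In round 1, 16.0% of lone KO peaks and 8.76% of lone WT peaks overlapped an H3K9me3 peak of WT liver, where shared peaks gave 3.00% and 3.09%. In round 2 the order was the reverse, with 1.82% of lone KO and 7.45% of lone WT peaks. H3K27me3 islands of WT liver held 11.1% of lone KO and 12.7% of lone WT peaks in round 1 and 23.3% and 16.8% in round 2. Neither overlap differed between the genotypes in the same direction in both rounds.

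Number, width and position of the peaks as a whole followed the round more than the genotype. KO had 1181 more peaks than WT in round 1 (1.67%) and 1289 more in round 2 (5.17%), a mean of 1235 ± 76.4 (SD, n = 2 rounds), while WT replicate 2 minus WT replicate 1 gave -45770 peaks. With peaks within 500 bp merged the excess was 250 and 1989 peaks, and at a −log10 q of 5 or more 2422 and 1374. KO had more peaks on 15 of 19 chromosomes in round 1 and on all 19 in round 2. The covered length was 44.6, 44.1, 20.9 and 24.7 Mb. The median width was 350 and 344 bp in round 1 and 604 and 677 bp in round 2, so KO was narrower by 6 bp and then wider by 73 bp, and the mean difference of 33.5 bp was within its SD of 55.9 bp. Peaks over 2 kb made 5.03%, 4.67%, 7.50% and 10.4% of the lists. Peaks over 4 kb numbered 535 and 507, then 182 and 297.

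**Figure D5:**
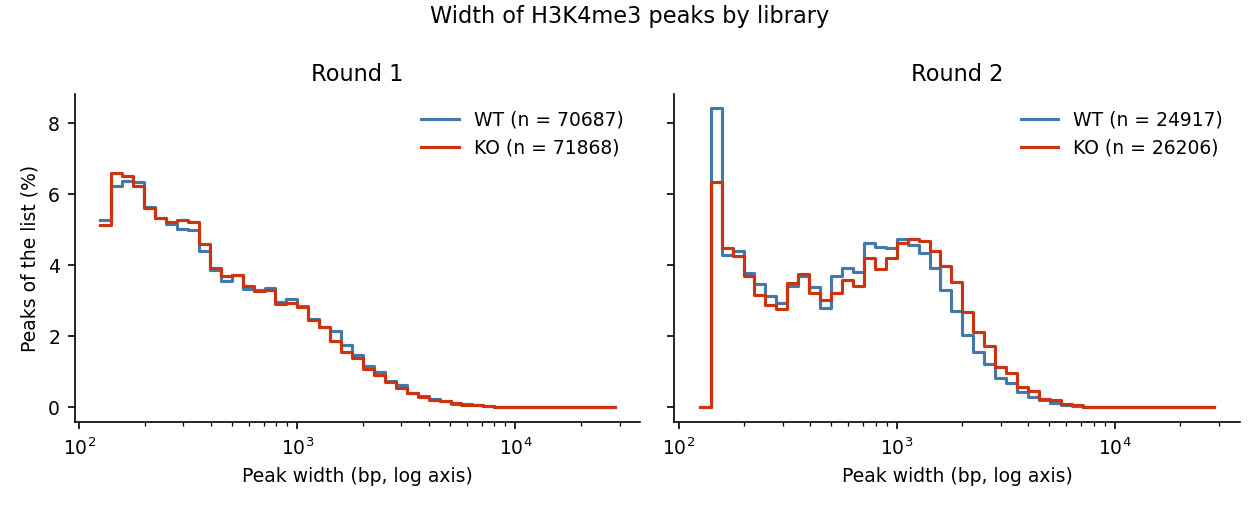
Distribution of H3K4me3 peak widths (bp, log axis) as a share (%) of each list, WT in blue and KO in red, round 1 on the left and round 2 on the right. The curves of round 1 nearly coincide (medians 350 and 344 bp), and in round 2 the KO curve lies to the right of the WT curve (medians 604 and 677 bp).

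Peaks that overlapped one to one gave the same picture. In round 1, 44609 pairs had a median log2 KO over WT width of -0.013, and 46.5% were wider in KO. In round 2, 17609 pairs had a median of 0.12, and 77.2% were wider in KO. Of 11997 pairs matched in both rounds, 24 were at least 2-fold wider and 2 at least 2-fold narrower in KO in both. Gene ends, within 1 kb of either end of a protein-coding gene, took 28.6% of WT and 28.7% of KO peaks in round 1, and 58.6% and 55.3% in round 2. Gene bodies took 45.5% and 44.9%, then 25.5% and 27.2%. The share at gene ends differed, KO minus WT, by 0.112 points in round 1 and -3.20 points in round 2, and the mean of -1.55 points was within its SD of 2.34.

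Very wide start domains, which are known from genes that define cell identity, were present in both genotypes. A start peak over 4 kb was present in all 4 libraries at 115 genes. Prox1, a homeobox factor of hepatocytes and lymphatic cells, had widths of 7723, 7968, 7812 and 8283 bp. Cps1, the first enzyme of the urea cycle, had 9647, 9811, 6074 and 6169 bp, and Sdc4, a heparan sulfate proteoglycan, had 7200, 7202, 7982 and 9024 bp. KO was wider than WT in both rounds at each of these 3 genes, though by only 2 bp at Sdc4 in round 1. Oaf had 12659, 9448, 5895 and 6120 bp, so it was several kb narrower in KO in round 1 and slightly wider in round 2.

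Lists of genes that write these marks or are known to respond to them had similar numbers of marked starts in KO and WT. Of 16 genes of the H3K4 methyltransferase complexes 14 were marked in each library, among them Kmt2a, which had 1712, 1744, 1455 and 1669 bp within 1 kb of its start. All 5 H3K4 demethylase genes were marked in each, and 14 of 15 DNA methylation genes, among them Dnmt1 with 1408, 1247, 903 and 1377 bp. All 30 cell cycle genes were marked in each library. Germline genes that DNA methylation is known to silence were marked at 2 of 26 starts in each library, the meiotic and piRNA genes Ddx4, Sycp1, Sycp3 and Mael being unmarked in all 4. Interferon response genes were marked at 27 of 28 starts in WT and 26 in KO in round 1 and at all 28 in round 2, the difference being Oas2, marked in WT and not KO in round 1. Imprinted genes were marked at 24, 23, 20 and 22 of 30 starts, with Igf2 marked in WT replicate 1 alone and Cdkn1c and Ndn in KO and not WT in round 2. No list had a member marked in both libraries of one genotype and neither of the other except the lymphocyte list, through Cd69. These shares stand beside the 58.4% to 64.9% of all genes that were marked. The length within 5 kb of the starts was greater in KO in round 2 for the interferon response and imprinted lists. The interferon response list had 60.9, 60.95, 36.9 and 48.9 kb, and the imprinted list 53.7, 51.1, 27.7 and 36.6 kb. Among members with at least 500 bp in all 4 libraries, the median log2 KO over WT length was -0.038 and 0.32 for 24 interferon response genes and 0.055 and 0.12 for 14 imprinted genes. Over all 11467 genes with that length the medians were -0.022 and 0.14.

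The tissue label was checked on marker genes. The hepatocyte markers Alb, Apoa1 and Cps1 were marked at the start in all 4 libraries, and Alb had 5660, 5268, 4182 and 5148 bp within 5 kb. Of 40 hepatocyte genes 40, 40, 39 and 39 were marked, the unmarked one in round 2 being Ttr, which had 3808 and 3923 bp within 5 kb. The bile duct markers Krt19 and Krt7 were unmarked in all 4.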

How the data were processed

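H3K4me3 was measured by ChIP-seq in 4 mouse liver libraries, 2 a genotype. Samples were grouped by their titles. Per the submitters' processing notes the tools were MACS2, SICER, BWA, Picard, FastQC 0.11.5 and Trimmomatic, with the builds GRCm38.p4 and mm10. Settings, and which input served each list, are not stated in the labels. The H3K4me3 lists have the layout of MACS2 narrow peaks, called by the authors per library. In each deposited list the authors give every peak a fold enrichment (a ratio over control) and a −log10 q-value (lowest 1.32 in WT replicate 1). These are the authors' values and served here to describe or filter peaks within a list. Fewer regions pass a caller's threshold in a shallower library, so a peak missing from a list does not show that the mark was absent. H3K27me3 islands (false discovery rate 0.01 or below) and H3K9me3 broad peaks entered by their bounds only.

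From the bounds on chromosomes 1 to 19, overlaps of at least 1 bp, widths, gaps and gene positions were computed with Python 3.11.15, numpy 2.4.6, pandas 2.3.3 and scipy 1.17.1, and figures with matplotlib 3.10.9. Gene bounds and starts came from RefSeq tables of GRCm38.p6, which shares primary coordinates with the builds of the lists. Overlap, gap and position code was tested on simulated lists. Members and lists were chosen with earlier results of these data known. Gm-number, LOC and Rik symbols were not named. Named were up to 12 genes marked in 1 genotype alone, by distance to the nearest peak of the other genotype; the 8 starts with the highest and the 8 with the lowest KO to WT length, by the smaller difference of the 2 rounds; the 6 longest distal regions a side; and the widest start peaks, of which not all are reported here. Kcnj5, Slc18a2, Milr1, Rgs4, Clec12a, Fam131a, Nfatc4, Mup14 and Mup3, the window on chromosome 4 and the length of 400 bp for lone peaks were singled out after the values were seen.

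Alternatives were a −log10 q of at least 5, equal peak numbers within a round, peaks within 500 bp merged, 50% overlap, windows of 2.5 kb, distal beyond 10 kb, either gene end as the start, and each round alone.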

Additional observations from a re-analysis of the deposited data

How the results depend on the processing

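No paired test was run, since no result comes from a test. KO was compared with WT within each round throughout. Across 21 results and 76 settings other than leaving out a round, 67 values moved by less than their spread over rounds or, for counts, by less than 1.5 times. With a −log10 q of 5 or more KO had on average 1898 ± 741 (SD over rounds) more peaks than WT, and with peaks within 500 bp merged 1119.5 ± 1229.7 more, against 1235 ± 76.4. The cause was not tested. Requiring no peak of the other genotype within 1 kb left 150 regions for KO and 13 for WT. Equal peak numbers within a round gave 183 regions for KO and 54 for WT, and 17 and 4 starts. The H3K9me3 overlap of lone peaks, KO minus WT, averaged 0.794 points and turned to -0.463 points at a −log10 q of 5 or more. Recurrence of lone WT peaks in favour of WT turned from -0.515 to 0.0185 points with equal peak numbers. For lone distal WT peaks of 400 bp or longer it went from -1.12 points to 0.704 at a −log10 q of 5 or more, to 3.44 with 50% overlap and to -8.21 with merging. For such KO peaks it stayed between 11.5 and 20.2 points. The cause of these shifts was not tested.

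With each round alone, KO minus WT ranged from -0.575 to 3.77 Mb in covered length, from -6 to 73 bp in median width, from -3.20 to 0.112 points at gene ends and from -0.683 to 14.2 points in lone peaks. It ranged from -0.0133 to 0.125 in log2 width of matched peaks, from -1.58 to 6.49 points in H3K27me3 and from -5.63 to 7.22 points in H3K9me3 at lone peaks, and recurrence of lone WT peaks from -2.64 to 1.61 points. A round alone, added after seeing the data, gave 3972 to 12506 regions for KO and 969 to 12743 for WT, 154 to 609 and 39 to 330 starts, and 58 to 898 longer and 20 to 154 shorter genes, since fewer libraries had to agree. Depth limits every absence of a peak.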
